A study of Mus musculus with 6 samples.

Results

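Cholesterol and fatty acid synthesis genes were examined in cultured mouse basophils after stimulation with IL-3. The set comprised 37 of the 37043 gene symbols in the count table and was chosen by name, from what the encoded proteins are known to do. The rule itself uses no measured value, but it was set with earlier results of these data known. It held the enzymes that build cholesterol from acetyl-CoA, the SREBP regulators of these enzymes, the enzymes that make, elongate and desaturate fatty acids, and the liver X receptors (LXRs) with sterol export genes. All 37 passed the filter on low counts that left 16675 genes tested.

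Bone marrow-derived basophils (BMBAs) were grown from bone marrow of wild-type C57BL/6J mice for 7 days with 0.3 ng/mL of cytokine, IL-3 per the study's methods, and were enriched with beads against CD49b. The cells then received PBS as a control or 10 ng/mL IL-3 for 6 h. Bulk RNA-seq was performed on 3 libraries per group. The libraries came from one experiment, with 3 cultures for each stimulation per the study's figure legend. The sources used here do not say whether each culture came from a separate mouse. The p-values therefore measure the spread between these cultures and their libraries. The culture itself contained IL-3, so the PBS group consisted of cells grown with the cytokine and not of cells that had never met it. Whether the low dose stayed in the medium during the PBS treatment is not stated in the sources used here.

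Cholesterol is built in the endoplasmic reticulum from acetyl-CoA by way of mevalonate, farnesyl diphosphate, squalene and lanosterol. When sterols in that membrane run low, SCAP escorts the SREBP transcription factors to the Golgi for cleavage, and the released fragments switch on synthesis genes. INSIG proteins hold the SCAP-SREBP complex back when sterols are plentiful. LXRs respond to oxidised sterols and switch on genes of sterol export. In immune cells these programmes supply membrane for growth and also shape inflammatory lipid signals.

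SREBP binding to a sterol regulatory element is usually helped by the factor NF-Y, which binds a CCAAT box close by. The promoter of Hmgcs1, which encodes the cytosolic enzyme that makes HMG-CoA, is shown because it was the only one among the matched members to hold the element's core, TCACNCCAC on either strand. The 250 bases before its RefSeq start are at chr13:119690101-119690350 (GRCm38.p6, plus strand), with the core in capitals, its first base 137 bases before the start.
Hmgcs1: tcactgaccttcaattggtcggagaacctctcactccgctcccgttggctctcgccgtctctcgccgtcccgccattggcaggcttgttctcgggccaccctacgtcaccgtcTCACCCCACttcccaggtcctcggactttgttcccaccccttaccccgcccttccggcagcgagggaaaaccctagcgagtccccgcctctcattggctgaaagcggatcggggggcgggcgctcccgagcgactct

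Shorter stretches before the starts of Lss, Insig1 and Mylip, all higher in IL-3, are shown around the CCAAT box nearest the start, with Abca1, lower in IL-3, as a promoter without the box. These 4 were chosen after their values were seen, from promoters whose printed stretch lay outside every annotated gene. They do not show that the box goes with a rise, since Mvk, Pmvk, Tm7sf2 and Ebp, lower in IL-3, also hold it. Capitals mark the box, which reads ATTGG on the opposite strand. The stretches are chr10:76531503-76531587 for Lss, chr5:28071162-28071240 for Insig1 and chr13:45389635-45389719 for Mylip, all on the plus strand, and chr4:53159896-53159980 on the minus strand for Abca1 (GRCm38.p6).
Lss: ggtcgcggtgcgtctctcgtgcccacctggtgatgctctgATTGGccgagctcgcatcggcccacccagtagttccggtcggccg
Insig1: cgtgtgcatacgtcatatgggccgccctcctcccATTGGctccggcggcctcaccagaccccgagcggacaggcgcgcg
Mylip: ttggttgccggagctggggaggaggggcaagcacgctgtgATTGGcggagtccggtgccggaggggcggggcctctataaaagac
Abca1: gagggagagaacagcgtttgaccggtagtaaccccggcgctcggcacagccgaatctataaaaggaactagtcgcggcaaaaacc

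Library totals ranged from 10537540 to 13999287 counts. The members took 0.138% to 0.140% of the counts in the PBS libraries and 0.119% to 0.132% in the IL-3 libraries. Levels are given as CPM, the usual scale of counts relative to the library size, which was adjusted here with TMM factors (trimmed mean of M values). In these units 3 counts in a library, the limit that a count of 0 allows, came to 0.233 to 0.296 CPM. This limit covers counting error only. Mitochondrial transcripts made up 3.53% to 3.58% of the counts in PBS and 2.01% to 2.07% in IL-3, and the part of this difference in the results below was not tested.

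The cultures carried the defining markers of basophils, with mean levels of 3066 CPM for Mcpt8 and 5615 CPM for Prss34 in PBS, and these markers as a list of 8 summed to 10419 to 11611 CPM in PBS and 15361 to 15531 in IL-3. Of the 8, 5 were called higher, while Fcer1a (log2 fold change -0.50) and Cebpa (-0.71) were called lower and Prss34 was not called (0.012). Markers of monocytes and macrophages were also present, led by Lyz2 with a mean of 10456 CPM in PBS and 5348 in IL-3. All 10 of these markers were detected and none was at 0. Their sum was 11968 to 12926 CPM in PBS and 6230 to 6853 in IL-3, 8 of the 10 were called lower, and Adgre1 and Ly6c2 were called higher. Over the 10 markers the log2 fold changes had a median of -1.0. Mast cell markers, which basophils share in part, summed to 841 to 945 CPM in PBS and 1438 to 1572 in IL-3, with 4 of 6 tested called higher and 0 lower. Markers of other cells were scarcer. Neutrophil markers summed to 75.6 to 111 CPM in PBS and 129 to 190.3 in IL-3, with 2 of 5 tested called higher and 1 lower. Eosinophil markers summed to 154 to 169.6 CPM in PBS and 93.9 to 134 in IL-3, with 3 of 4 tested called lower and 1 higher. Erythroid markers summed to a mean of 153 ± 60.3 CPM in PBS and 76.0 ± 23.5 in IL-3 (SD, n = 3 each) with overlapping groups, 2 of 4 tested were called lower, and Alas2 was at 0 in all libraries. In bulk RNA, fewer cells of a type and less RNA per cell cannot be told apart, and this holds for each difference below.

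IL-3 was compared with PBS to ask how the lipid genes respond within 6 h. Genes with an adjusted p under 0.05 were called, by edgeR's quasi-likelihood test with Benjamini-Hochberg adjustment over all 16675 genes. Of the 37 members, 9 were called higher in IL-3 (24.3%), 10 were called lower (27.0%) and 18 were not called. Over all genes tested, 18% were called higher and 20.2% lower. The members' shares were not tested against these, and the difference is not read as a property of the members. The median log2 fold change was 0.091 for the members and -0.0033 for all genes. All 3 IL-3 libraries lay above all 3 PBS libraries for 16 of the 37 members and below them for 11 of the 37. Of all 16675 genes tested, 3971 (23.8%) lay above and 4072 (24.4%) below, and this difference was not tested either. The summed level of the members was 1306 to 1328 CPM in PBS and 1285 to 1369 in IL-3, and the groups overlapped. With library totals in place of TMM, the log2 fold changes of all genes shifted by a median of -0.16, the calls over all genes were 1698 higher and 5030 lower in place of 3003 and 3372, and those over the members were 7 higher and 12 lower.

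**Figure D1:**
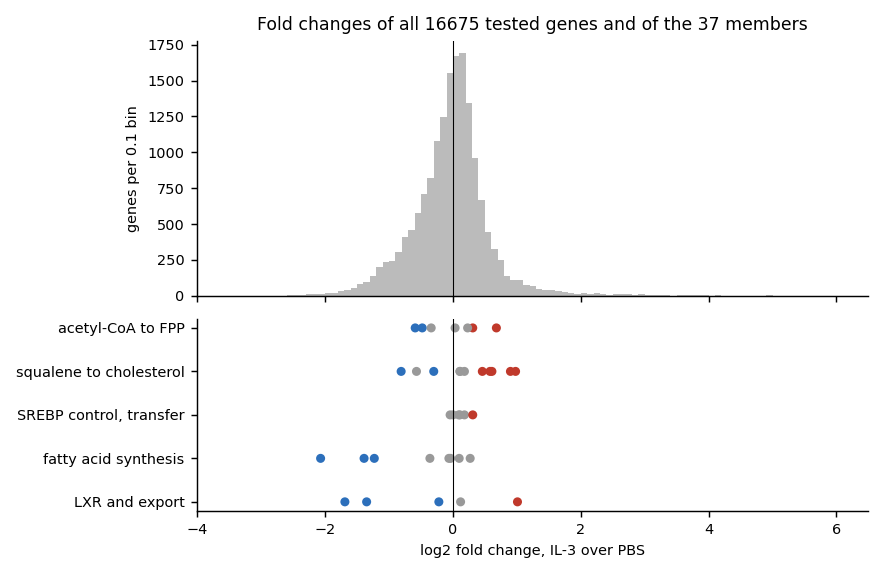
Distribution of log2 fold changes (IL-3 over PBS) for all 16675 genes tested, as genes per bin of 0.1 (top), and the 37 members as points by role (bottom), with red for called higher, blue for called lower and grey for not called; FPP is farnesyl diphosphate. The members spread on both sides of 0, from -2.07 to 1.01, and the lowest are fatty acid and LXR genes.

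The members are described by role, in turn along the pathway. Differences between roles were not tested.

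**Figure D2:**
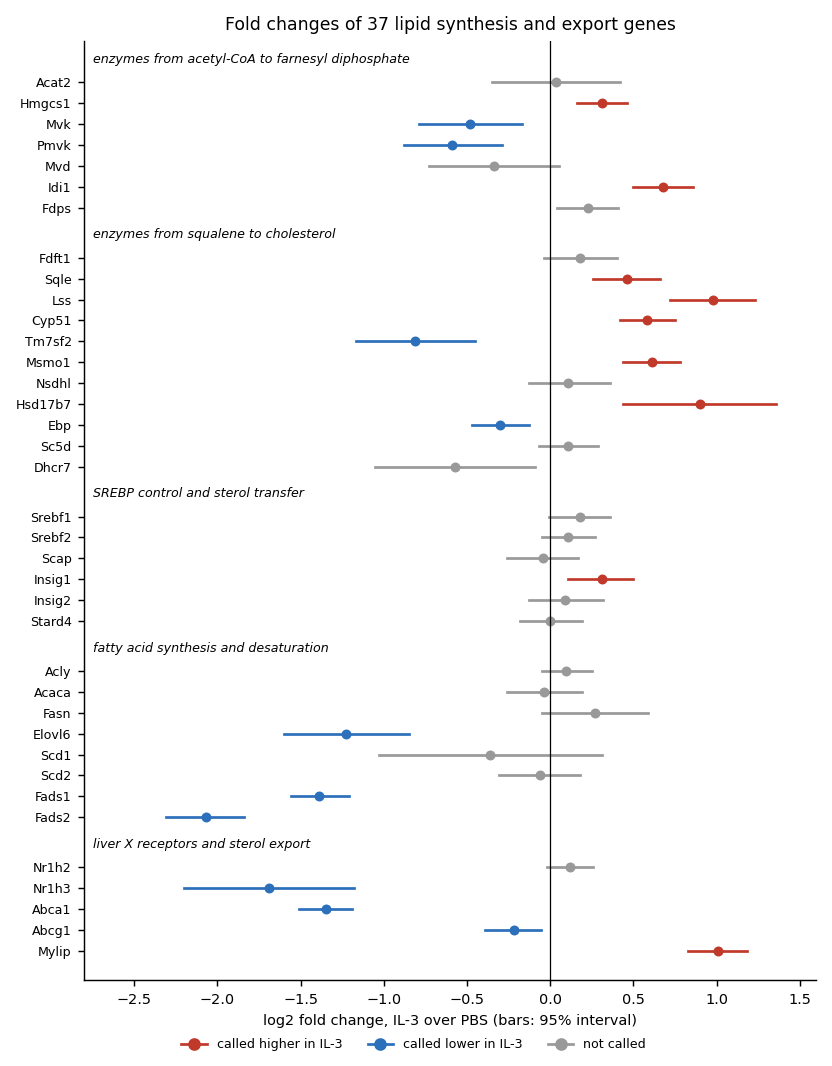
Log2 fold change (IL-3 over PBS) of each of the 37 members with its 95% interval as a bar, ordered by role along the pathway, in red where called higher, blue where called lower and grey where not called. The sterol enzymes Idi1, Sqle, Lss, Cyp51, Msmo1 and Hsd17b7 lie to the right of 0, while Elovl6, Fads1, Fads2, Nr1h3 and Abca1 lie between -1.23 and -2.07.

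The 7 enzymes from acetyl-CoA to farnesyl diphosphate moved in both directions, with 2 called higher and 2 called lower (28.6% each, against 18% and 20.2% of all genes). Their median log2 fold change was 0.034. Idi1 (chromosome 13, 8885501 to 8892451, plus strand; coordinates of genes are from GENCODE M21 on GRCm38), the isomerase that interconverts the isoprenoid building blocks, was measured at 29.9, 29.5 and 30.6 CPM in PBS and at 46.1, 45.2 and 52.5 in IL-3. The IL-3 libraries were all above the PBS libraries, with a log2 fold change of 0.68 (SE 0.0851, edgeR adjusted p = 1.01e-05). For Hmgcs1, whose promoter is given above, the levels were 63.9, 60.1 and 61.7 CPM in PBS and 82.7, 73.8 and 74.1 in IL-3. The groups did not overlap, and the log2 fold change was 0.31 (SE 0.0683, edgeR adjusted p = 0.00191). With library totals it was 0.15 and no longer called (adjusted p = 0.127).

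The kinases that phosphorylate mevalonate in succession were lower in IL-3. Pmvk, the phosphomevalonate kinase, stood at 13.9, 17.5 and 17.9 CPM in PBS and 11.4, 9.74 and 11.7 in IL-3. Every IL-3 library was below every PBS library (log2 fold change -0.59, SE 0.140, edgeR adjusted p = 0.00346). Mvk, the mevalonate kinase that acts one step earlier, was at 10.8, 11.0 and 9.69 CPM in PBS and 7.50, 8.08 and 7.06 in IL-3. These groups did not overlap either (log2 fold change -0.48, SE 0.145, edgeR adjusted p = 0.0159). The Mvk call was lost without PBS replicate 2 (adjusted p = 0.0509) and without IL-3 replicate 3 (adjusted p = 0.0634).

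The other 3 enzymes of this stretch were not called. Fdps, which makes farnesyl diphosphate, had a mean of 34.0 ± 2.85 CPM in PBS and 39.7 ± 1.80 in IL-3 (SD, n = 3 each) and missed the threshold (log2 fold change 0.23, edgeR adjusted p = 0.0537), although its groups did not overlap. It was called without PBS replicate 3 (adjusted p = 0.0367). Mvd, the decarboxylase, had a log2 fold change of -0.34 (edgeR adjusted p = 0.167) with overlapping groups, and leaving out PBS replicate 3, its lowest PBS library at 10.0 CPM, gave -0.56 and a call (adjusted p = 0.00848), as did library totals (-0.50, adjusted p = 0.0381). Without PBS replicate 2 the value was -0.16 (adjusted p = 0.569). Acat2, which joins acetyl-CoA units at the entry to the pathway, had a log2 fold change of 0.034 (95% interval -0.35 to 0.42).

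Reads of several of these genes could be shared with near-identical copies. The share of 50-base stretches of a gene's transcripts that also occur on the same strand in another gene was 39.1% for Acat2, mainly with Acat3, 26.2% for Fdps and 17.7% for Idi1. For Hmgcs1 it was 0.474%, with a further 11.6% on the opposite strand of other genes. Values for these genes are uncertain to that extent, since no rule for reads of several origins is described.

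Of the 11 enzymes from squalene to cholesterol, 5 were called higher (45.5%, against 18% of all genes) and 2 lower (18.2%, against 20.2%), with a median log2 fold change of 0.18. Their summed level was 253 to 262 CPM in PBS and 318 to 328 in IL-3, a mean 25.9% higher. With TMM scaling, no member of this group had overlapping libraries, with 8 above and 3 below, where 23.8% and 24.4% of all genes were above and below. Lss (chromosome 10, 76531588 to 76557138, plus strand), the lanosterol synthase that closes the sterol rings, was at 21.9, 21.6 and 15.5 CPM in PBS and 40.6, 35.6 and 40.3 in IL-3. All IL-3 libraries were above all PBS libraries, with a log2 fold change of 0.98 (SE 0.120, edgeR adjusted p = 7.98e-06).

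The enzymes that work on either side of Lss rose as well. Sqle, squalene epoxidase, a rate-limiting oxygenase of the pathway, was at 26.3, 29.3 and 24.8 CPM in PBS and 38.9, 36.7 and 35.1 in IL-3. Its groups were separate, with a log2 fold change of 0.46 (SE 0.0927, edgeR adjusted p = 0.000922). Cyp51, which removes the first methyl group of lanosterol, was at 41.6, 36.1 and 39.6 CPM in PBS and 57.6, 56.3 and 62.0 in IL-3. Again no library crossed into the other group (log2 fold change 0.58, SE 0.0792, edgeR adjusted p = 2.30e-05). Msmo1, the oxidase that begins removal of the paired methyl groups at carbon 4, was at 35.5, 37.9 and 40.6 CPM in PBS and 55.8, 62.0 and 56.4 in IL-3. The separation was as complete as for Cyp51 (log2 fold change 0.61, SE 0.0802, edgeR adjusted p = 1.56e-05). Hsd17b7, a ketoreductase of the same demethylation, rose from 6.64 ± 2.73 to 12.5 ± 1.43 CPM (SD, n = 3 each, log2 fold change 0.90, SE 0.217, edgeR adjusted p = 0.00361).

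Other steps of the same route did not rise. Tm7sf2, a sterol reductase that follows Cyp51, fell from 10.1 ± 1.14 to 5.70 ± 0.915 CPM (SD, n = 3 each, log2 fold change -0.81, SE 0.169, edgeR adjusted p = 0.00130). It shares 9.87% of its 50-base stretches with Vps51, on the same strand. Ebp, the isomerase that moves a double bond in the sterol ring, fell from 45.3 ± 0.981 to 36.8 ± 1.96 CPM (SD, n = 3 each, log2 fold change -0.30, SE 0.0785, edgeR adjusted p = 0.00652). Dhcr7, which acts at the end of the route, had a log2 fold change of -0.57 and was not called (edgeR adjusted p = 0.0583). It was called with library totals (adjusted p = 0.0142), with repeated TMM (adjusted p = 0.0492) and without IL-3 replicate 3 (adjusted p = 0.0393).

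Fdft1, Nsdhl and Sc5d were not called. Fdft1, squalene synthase, had a log2 fold change of 0.18 (95% interval -0.04 to 0.40), and 17.2% of its 50-base stretches lie on the opposite strand of another gene, mainly Ctsb, so that without a stated use of strand their reads cannot be told apart. Nsdhl, the sterol dehydrogenase that works with Msmo1 and Hsd17b7, and Sc5d, a desaturase, each had a log2 fold change of 0.11, with 95% intervals of -0.13 to 0.36 and -0.067 to 0.29. Both values turned slightly negative with library totals (-0.048 and -0.049), where Fdft1 was at 0.017.

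**Figure D3:**
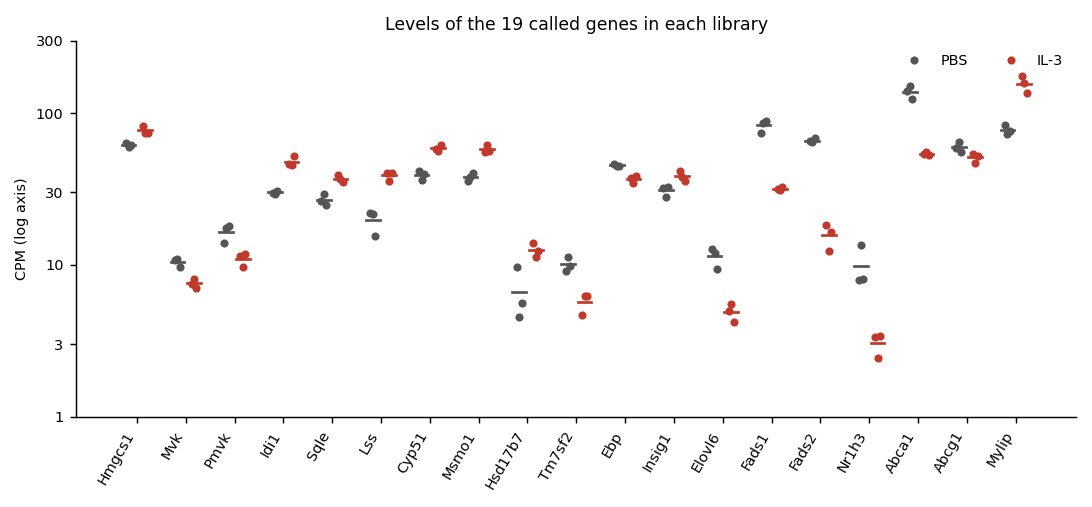
Level of each of the 19 called members in each library (CPM, log axis), grey for PBS and red for IL-3, with a short line at the mean of 3 libraries. Red points lie above grey points for Idi1, Sqle, Lss, Cyp51, Msmo1, Hsd17b7 and Mylip, and far below them for Fads1, Fads2, Nr1h3 and Abca1.

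Of the 6 genes of SREBP control and sterol transfer, only Insig1 was called (16.7% higher, against 18% of all genes, and 0 lower, against 20.2%). Their median log2 fold change was 0.10. Insig1, which retains SCAP and SREBP in the endoplasmic reticulum and is itself an SREBP target, was at 32.2, 28.1 and 32.5 CPM in PBS and 41.5, 38.1 and 35.5 in IL-3. The IL-3 libraries were all higher (log2 fold change 0.31, SE 0.0925, edgeR adjusted p = 0.0152), yet the call was lost without PBS replicate 2 (adjusted p = 0.0751), without IL-3 replicate 1 (adjusted p = 0.0796) and with library totals (adjusted p = 0.268). Insig2, its paralogue, was at 22.3, 20.2 and 22.9 CPM in PBS and 25.1, 21.7 and 22.9 in IL-3. These groups overlapped (log2 fold change 0.091, 95% interval -0.13 to 0.32, edgeR adjusted p = 0.543).

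The transcripts of the SREBP factors were not called. Srebf2, which encodes SREBP2, the main activator of cholesterol genes, was at 90.2, 86.8 and 107 CPM in PBS and 107, 99.8 and 100.1 in IL-3. The groups overlapped, with a log2 fold change of 0.11 (95% interval -0.047 to 0.27, edgeR adjusted p = 0.264), and leaving out PBS replicate 3, the highest PBS library, gave 0.21 and a call (adjusted p = 0.0273). Srebf1, which encodes the SREBP1 forms that favour fatty acid genes, was at 27.2, 26.3 and 26.3 CPM in PBS and 30.4, 29.7 and 30.3 in IL-3. Its IL-3 libraries were all higher, but the difference was not called (log2 fold change 0.18, edgeR adjusted p = 0.122). Scap, the escort protein, and Stard4, which carries cholesterol between membranes, had log2 fold changes of -0.044 (95% interval -0.26 to 0.17) and 0.0015 (95% interval -0.18 to 0.19).

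The fatty acid enzymes had 0 of 8 called higher (18% of all genes) and 3 called lower (37.5%, against 20.2% of all genes). Their median log2 fold change was -0.21. Their summed level was 278 to 285 CPM in PBS and 173 to 185 in IL-3, a mean that fell by 36.9%. Most of this fall came from Fads1 (mean 82.9 CPM in PBS and 31.6 in IL-3) and Fads2 (65.9 and 15.7). The 3 that fell desaturate or elongate fatty acids. Fads2 (chromosome 19, 10062765 to 10101746, minus strand), the delta-6 desaturase that begins the conversion of dietary essential fatty acids into highly unsaturated ones, was at 65.0, 64.6 and 68.2 CPM in PBS and 18.4, 12.3 and 16.5 in IL-3. The highest IL-3 library was far under the lowest PBS library, and the log2 fold change of -2.07 (SE 0.111, edgeR adjusted p = 4.57e-10) was the lowest of the members and 60th lowest of the 16675 genes. Fads1 (chromosome 19, 10182888 to 10196877, plus strand), the delta-5 desaturase that yields arachidonic acid, was at 73.6, 86.4 and 88.6 CPM in PBS and 31.5, 31.0 and 32.4 in IL-3. It fell with a log2 fold change of -1.39 (SE 0.0821, edgeR adjusted p = 1.47e-09), 332nd lowest of all genes.

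Fads1 and Fads2 lie in one gene cluster on chromosome 19 and are read in opposite directions from starts 81142 bases apart. The third gene of the cluster, Fads3, lies 2654 bases from Fads2 and was added after its values were seen. It was at 3.27, 2.98 and 1.59 CPM in PBS and 2.76, 0.999 and 2.33 in IL-3, with overlapping groups (log2 fold change -0.38, SE 0.358, edgeR adjusted p = 0.446). Fads2 shares 0.152% of its 50-base stretches with Fads3 and Fads1 shares none with another gene.

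Elovl6, which lengthens palmitate to stearate, fell as well. It was at 12.8, 12.0 and 9.34 CPM in PBS and 4.94, 5.50 and 4.19 in IL-3, with every IL-3 library lower (log2 fold change -1.23, SE 0.176, edgeR adjusted p = 4.09e-05). The enzymes that make palmitate itself were not called. Fasn, fatty acid synthase, was at 10.3, 10.6 and 9.60 CPM in PBS and 13.4, 13.7 and 9.93 in IL-3. IL-3 replicate 3 lay within the PBS range (log2 fold change 0.27, edgeR adjusted p = 0.173), and without that library the value was 0.41 and called (adjusted p = 0.0452).

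Acly, which supplies cytosolic acetyl-CoA, and Acaca, the acetyl-CoA carboxylase, had log2 fold changes of 0.098 (95% interval -0.05 to 0.25) and -0.037 (95% interval -0.26 to 0.19). The Acly value was -0.063 with library totals, and 30.4% of the 50-base stretches of Acaca occur in another gene, mainly Gm5182. Of the delta-9 desaturases that make monounsaturated fatty acids, Scd2 was the more abundant form per length (5.75 against 0.367 CPM per kilobase in PBS), at 31.4 ± 5.79 CPM in PBS and 30.1 ± 0.890 in IL-3 (SD, n = 3 each). Its log2 fold change of -0.063 (95% interval -0.31 to 0.18) became 0.087 without PBS replicate 1. Scd1 was low, at 1.77 ± 0.173 and 1.40 ± 0.420 CPM (SD, n = 3 each), and its interval of -1.03 to 0.31 is wide.

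**Figure D4:**
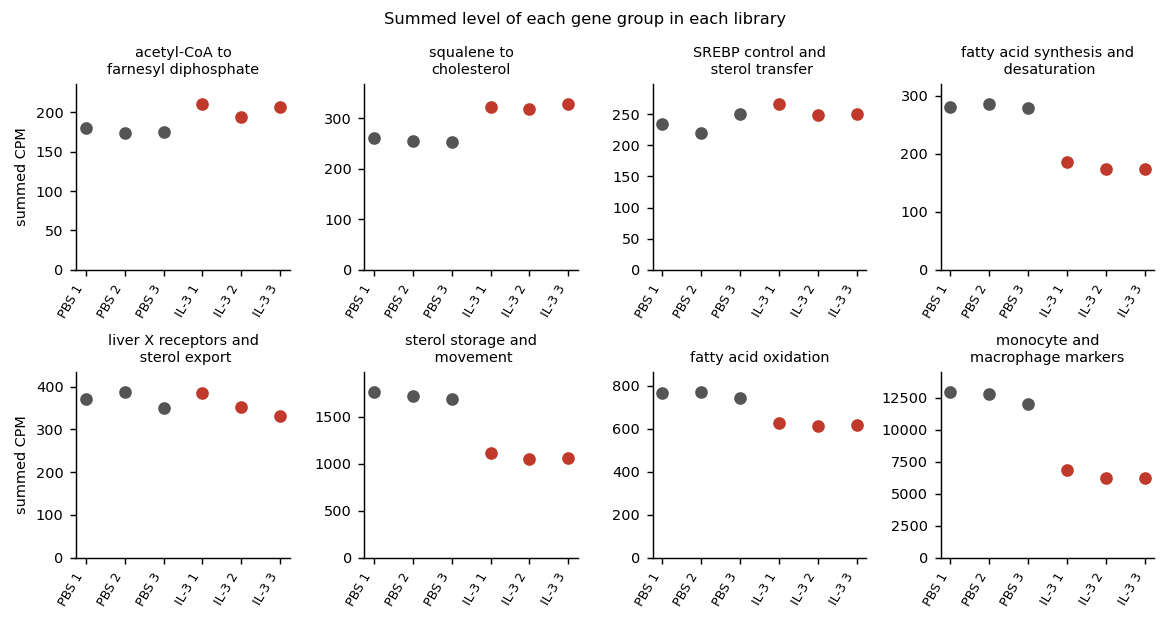
Summed CPM of the 5 roles, of the lists for sterol storage and movement and for fatty acid oxidation, and of the monocyte and macrophage markers, one point per library (grey for PBS, red for IL-3) on linear axes that start at 0. The squalene-to-cholesterol sum is higher in all IL-3 libraries (318 to 328 against 253 to 262), while the fatty acid sum (173 to 185 against 278 to 285) and the macrophage markers (6230 to 6853 against 11968 to 12926) are lower in all of them.

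Among the LXR and export genes 3 of 5 were called lower (60%, against 20.2% of all genes) and 1 higher (20%, against 18%). Abca1 (chromosome 4, 53030787 to 53159895, minus strand), the transporter that loads cholesterol onto lipid-poor apolipoproteins, was at 139, 150.5 and 123 CPM in PBS and 53.6, 55.2 and 53.0 in IL-3. The groups were far apart, with a log2 fold change of -1.35 (SE 0.0741, edgeR adjusted p = 5.90e-10). Nr1h3, which encodes LXR alpha, the form typical of macrophages and liver, was at 7.94, 13.6 and 8.10 CPM in PBS and 3.36, 2.42 and 3.41 in IL-3. The PBS libraries varied more than the IL-3 libraries, but all lay above them (log2 fold change -1.69, SE 0.239, edgeR adjusted p = 3.68e-05). Nr1h2, which encodes the widely expressed LXR beta, had a mean of 84.4 ± 2.10 CPM in PBS and 91.8 ± 6.01 in IL-3 (SD, n = 3 each, log2 fold change 0.12, 95% interval -0.017 to 0.26) and was not called.

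Mylip, an LXR target that encodes a ubiquitin ligase for lipoprotein receptors, moved the other way from Abca1. It lies on chromosome 13, 45389742 to 45412022, plus strand, and was at 83.0, 73.0 and 76.8 CPM in PBS and 175, 157 and 136 in IL-3. All IL-3 libraries were higher, and the log2 fold change was 1.01 (SE 0.0832, edgeR adjusted p = 8.93e-08). Abcg1, which exports cholesterol to larger lipoproteins, was at 58.5, 64.6 and 55.8 CPM in PBS and 54.0, 47.0 and 52.4 in IL-3. The groups were separate by a narrow margin (log2 fold change -0.22, SE 0.0798, edgeR adjusted p = 0.0368). The Abcg1 call was lost by the DESeq2 Wald test (adjusted p = 0.0606), with no filter on low counts (adjusted p = 0.0503), and without PBS replicate 1 or 2 or IL-3 replicate 2 or 3 (adjusted p from 0.0564 to 0.177).

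Several members that fell are also expressed by macrophages, whose 10 markers centred on a log2 fold change of -1.0. Fads2 at -2.07, Nr1h3 at -1.69, Fads1 at -1.39, Abca1 at -1.35 and Elovl6 at -1.23 were below that median. The other members called lower, Tm7sf2 (-0.81), Pmvk (-0.59), Mvk (-0.48), Ebp (-0.30) and Abcg1 (-0.22), were above it. The marker Cd14, which was the lowest of the 10, was at -1.35. Among the scarcer markers, Ear2 and Ear1 of eosinophils (log2 fold changes -1.39 and -1.25) and Hba-a1 of erythroid cells (-1.14) were called lower too. Retnlg of neutrophils (2.61) and Prg2 of eosinophils (3.54) were called higher. These lists were mixed: Mpo of neutrophils (-0.63) was called lower, and Hbb-bs (0.64) and Hbb-bt (0.34) of erythroid cells were positive but not called. The part of any of these cells in the fall of the members was not tested. The sterol enzymes that rose, and Mylip, had the opposite sign to the marker sum, and the basophil markers had a sum 41.2% higher in IL-3, although 2 of the 8, Fcer1a and Cebpa, were called lower. The mast cell markers had a sum 67.9% higher. The part of these shifts was not tested either.

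Pairs of related genes were compared as log2 ratios within each library, 6 pairs in all, by an exact two-sided permutation test, for which 3 libraries against 3 allow no p below 0.10. The Nr1h2 to Nr1h3 ratio had a mean of 3.14 in PBS and 4.90 in IL-3 in log2 units, the Fads1 to Fads2 ratio was 0.33 in PBS and 1.02 in IL-3, the Insig1 to Insig2 ratio was 0.50 and 0.72, and the Abca1 to Abcg1 ratio was 1.20 and 0.08. These 4 ratios had separate groups and the smallest possible p (exact permutation p = 0.10, adjusted over the 6 pairs p = 0.150), so that none could pass the threshold. The Srebf1 to Srebf2 ratio was -1.82 and -1.76 (exact permutation p = 0.900) and the Scd1 to Scd2 ratio -4.10 and -4.42 (exact permutation p = 0.300), both with overlapping groups. Leaving out 1 library moved the difference in the Scd1 to Scd2 ratio from -0.32 to -0.53 (without IL-3 replicate 1) or -0.18 (without IL-3 replicate 2).

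Levels of different genes are comparable only per length, here as CPM per kilobase of the longest annotated transcript. On this scale Nr1h2 was highest in PBS at 42.2 ± 1.05, followed by Ebp at 26.0 ± 0.563, Mylip at 25.3 ± 1.63 and Fads1 at 24.0 ± 2.34 (SD, n = 3 each), the last 3 of which lay within their spread of each other. Scd1 was lowest at 0.367 ± 0.0359. In IL-3, Mylip at 50.9 ± 6.43 and Nr1h2 at 45.9 ± 3.01 led and lay within their spread of each other, while Fads1 stood at 9.14 ± 0.211.

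Further genes of lipid metabolism were described by lists. Of 8 genes for SREBP processing and sterol sensing, 2 were called higher (25.0%, against 18% of all genes) and 0 lower (20.2% of all genes), with a median log2 fold change of 0.14. Rnf139, a sterol-sensing ubiquitin ligase, was at 17.6 ± 1.53 CPM in PBS and 26.8 ± 1.42 in IL-3 (SD, n = 3 each, log2 fold change 0.61, edgeR adjusted p = 0.000292).

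Sterol storage and movement had 7 of 12 called lower (58.3%, against 20.2% of all genes) and 0 called higher (18% of all genes), with a median of -0.35. Nceh1, which hydrolyses cholesteryl esters, fell from 207 ± 9.16 to 78.7 ± 3.71 CPM (SD, n = 3 each, log2 fold change -1.40, edgeR adjusted p = 3.61e-11). Lipa, the lysosomal lipase for the same esters, fell from 512 ± 15.0 to 248 ± 11.4 CPM (SD, n = 3 each, log2 fold change -1.05, edgeR adjusted p = 1.90e-10). These genes are abundant in macrophages too, and the marker values above stand beside them. The prenyl branch, which leaves the mevalonate pathway for protein prenylation, dolichol and coenzyme Q, had 0 of 12 called higher (18% of all genes) and 1 lower (8.33%, against 20.2%), Coq2 at a log2 fold change of -0.31 (edgeR adjusted p = 0.0416).

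Of 4 other LXR targets, Arl4c and Lpcat3 were called higher and Smpdl3a and Pltp lower (50% each, against 18% and 20.2% of all genes). Arl4c, a small GTPase, rose from 475 ± 20.4 to 1318 ± 84.3 CPM (SD, n = 3 each, log2 fold change 1.47, edgeR adjusted p = 4.53e-12). Smpdl3a, a phosphodiesterase related to acid sphingomyelinase, fell from 182 ± 15.4 to 81.5 ± 11.7 CPM (SD, n = 3 each, log2 fold change -1.16, edgeR adjusted p = 4.27e-08).

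Fatty acid oxidation had 11 of 17 genes called lower (64.7%, against 20.2% of all genes) and 1 called higher (5.88%, against 18%), with a median of -0.31. Cpt1a, which commits fatty acids to mitochondrial oxidation, was at 109 ± 1.02 CPM in PBS and 56.1 ± 9.56 in IL-3 (SD, n = 3 each, log2 fold change -0.96, edgeR adjusted p = 5.37e-07). Acaa2, a thiolase of the same route, fell with a log2 fold change of -1.13 (edgeR adjusted p = 2.33e-05).

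Fatty acid supply, elongation and activation had 3 higher (17.6%, against 18% of all genes) and 6 lower (35.3%, against 20.2%) of 17 tested, with Acacb not tested. Acss2, which makes acetyl-CoA from acetate and is an SREBP target, fell with a log2 fold change of -0.91 (edgeR adjusted p = 7.72e-08), while Acsl4, which activates arachidonic acid, rose by 0.65 (edgeR adjusted p = 2.33e-07). Glycerolipid and phospholipid synthesis had 4 higher (25.0%, against 18% of all genes) and 6 lower (37.5%, against 20.2%) of 16 tested, with Dgat2 not tested. Pgs1, of the cardiolipin route, rose with a log2 fold change of 1.02 (edgeR adjusted p = 4.29e-08) and Agpat4, an acyltransferase, fell with one of -1.06 (edgeR adjusted p = 7.11e-05).

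Promoters of 29 of the 37 members were matched by symbol in RefSeq tables (GRCm38.p6), each with 250 bases before the start and 50 after it. These members had 38 entries in all, and a gene was counted as holding a motif if any of its entries did. No entry was matched for Fdps, Fdft1, Sqle, Stard4, Scd1, Scd2, Fads1 and Abcg1. The CCAAT box, searched as CCAAT on both strands, was present in 21 of 29 (72.4%), against 43.0% of tested genes with an entry. Of all 32851 entries, counted singly and not per gene, 37.4% held the box. Of 15 members that are sterol synthesis enzymes with an entry, 14 held it. It was in 8 of 8 members called higher, 4 of 8 called lower and 9 of 13 not called. The 4 called lower that held it were Mvk, Pmvk, Tm7sf2 and Ebp, all sterol synthesis enzymes. Among these enzymes the box was thus present in genes called higher and in genes called lower. It was in none of the promoters of Fads2, Elovl6, Nr1h3 and Abca1, the members with the lowest fold changes among those matched.

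The sterol regulatory element core was in 1 member, Hmgcs1, in 1.24% of all entries and in 1.25% of tested genes with an entry. The E-box, CACGTG, was in 6 of 29 members (20.7%), in 7.15% of all entries and in 11.3% of tested genes with an entry. TTCNNNGAA, the letters of a STAT site, was in 1 member, Ebp, in 8.30% of all entries and in 8.59% of the promoters of tested genes, and the DR4 element by which LXRs bind was in 0 members and 0.0152% of entries. No matches of different motifs overlapped in the members. A match describes letters in a short window and does not show binding. The DR4 search was strict, with a match in 5 of the 32851 entries, and a site whose letters differ from the searched pattern would be missed. The count of 0 members therefore does not show that Abca1 or another member lacks an LXR site.

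**Figure D5:**
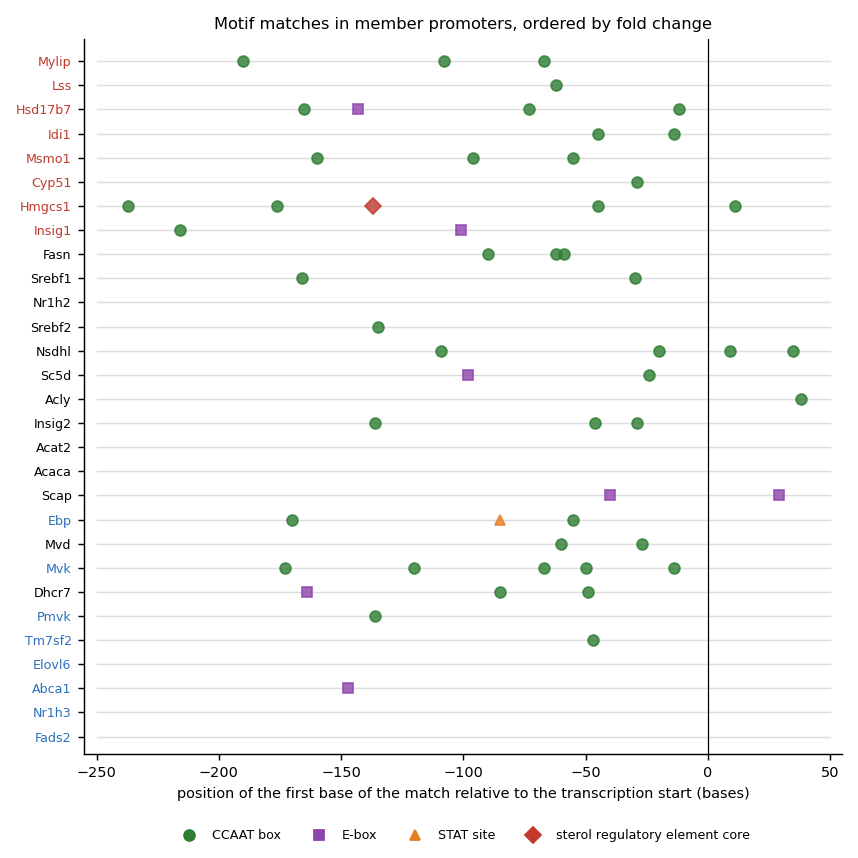
Positions of motif matches in the 29 member promoters, as bases from the transcription start (0) to the first base of each match, with genes ordered by fold change from Mylip (highest) to Fads2 (lowest) and names in red for called higher and blue for called lower. Where a gene has several entries, their matches share 1 line. All 8 red genes carry at least 1 CCAAT box, as do Mvk, Pmvk, Tm7sf2 and Ebp, in blue. The core of the sterol regulatory element appears once, in Hmgcs1, and the 4 genes at the bottom have no CCAAT box.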

How the data were processed

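The authors deposited raw read counts per gene symbol for 6 libraries, 3 per group. Per the methods of the study, RNA was captured on oligo-dT beads, amplified as whole-transcriptome cDNA and fragmented. Reads were trimmed with Cutadapt (version 3.4 in the submitters' processing notes) and mapped with Bowtie2 to reference RNA. The methods name GRCm38 and the processing notes GRCm39. Gene coordinates here are GRCm38 (GENCODE M21). Use of strand and treatment of reads with several origins are not given in the sources used here. No molecular identifiers are described, so PCR copies were counted as reads. The labels name a column extraction and the methods direct lysis.

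edgeR 4.0.16 (R 4.3.3) was used on these counts (filterByExpr, TMM, quasi-likelihood F test with group as the only term), two-sided, with Benjamini-Hochberg adjustment over the 16675 tested genes. The SE was derived from F, and CPM values follow TMM scaling. Ratios were taken on raw counts with a pseudocount of 0.5 counts. The pipeline was tested on simulated data. Libraries of a group correlated at 0.985 to 0.988 and none matched another within sampling noise. The totals per library set the precision at low counts.

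Members and lists were chosen by gene name and function, with earlier results of these data known. Every member is accounted for. The 4 members per role and the 2 called genes per list with the smallest adjusted p are given with values, except a gene that is not reported here, and marker genes, Lpcat3, Pltp and Fads3 fall outside that rule. Alternatives were size factors and the Wald test of DESeq2 1.42.0, library totals, repeated TMM (DEGES), no filter, a filter at 1 CPM in 3 libraries, limma-voom (limma 3.58.1), a threshold of 0.01, a replicate block and leaving out each library.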

Additional observations from a re-analysis of the deposited data

How the results depend on the processing

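No called member changed sign under any of the 15 alternatives, and 16 to 19 of the 19 calls were kept. Enzymes from squalene to cholesterol called higher stayed at 5 and fatty acid enzymes called lower at 3 throughout. With library totals, 1698 genes in all, 1 enzyme of the route to farnesyl diphosphate and 0 SREBP regulators were called higher. At adjusted p below 0.01, that route had 1 enzyme called lower and the SREBP regulators 0 called higher. Leaving out 1 library at a time gave 1 to 3 enzymes called lower on that route, 0 to 2 SREBP regulators called higher and 0 to 1 fatty acid enzymes called higher, and a difference in the log2 ratio of Srebf1 to Srebf2 of -0.036 to 0.11. Uncalled members changed sign with library totals, whose median shift was -0.16: Acat2 to -0.13, Nsdhl to -0.048, Sc5d to -0.049, Srebf2 to -0.05, Insig2 to -0.071, Stard4 to -0.16, Acly to -0.063 and Nr1h2 to -0.042. Stard4 was also at -0.023 with repeated TMM and -0.0013 with limma-voom. Without 1 library, Acat2 ranged from -0.15 to 0.25, Stard4 from -0.049 to 0.062 and Scd2 from -0.18 to 0.087. Replicate numbers did not pair the libraries: same-numbered libraries deviated with correlations of -0.00869, -0.0162 and -0.0224. With a replicate block, 9 members were called higher and 9 lower, and Abcg1 was lost (adjusted p = 0.0611). Genes near 0.3 CPM are limited by depth, but all members lay above it.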
